A study of Mus musculus with 2 samples.

Results

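Genes of neuropeptide signalling and of dense core vesicles were described in midbrain taken from mouse embryos on day 15.5 of gestation. The set holds 38 genes of the 43346 Ensembl genes listed in the deposited gene tables. They were chosen by name for what their products are known to do and found by gene ID, and all 38 were listed in both tables: 24 peptide precursors, 5 granins, 6 processing genes and 3 neurexophilins. The tissue came from the B6NCrl strain, with no genotype change or treatment named in the labels. There was 1 group with 2 libraries of total RNA, each from its own pool of healthy embryos of both sexes, 78 in replicate 1 and 62 in replicate 2. Both libraries were made from 10 ng of RNA longer than 200 nt, and each mixes all cell types of the dissected tissue. Levels are in TPM, the share of each gene among all transcripts after scaling by length, per 1000000, and are given for each library and as mean ± SD (n = 2).

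Neuropeptides are cut out of larger precursor proteins inside dense core vesicles, which release their cargo when the neuron fires strongly or in bursts. The prohormone convertases Pcsk1 and Pcsk2 cut precursors after basic residues, most often at Lys-Arg or Arg-Arg pairs. Carboxypeptidase E (Cpe) then trims those residues from the ends, and Pam turns an exposed C-terminal glycine into an amide. The granins are acidic proteins that condense with the cargo while the vesicle forms, and the neurexophilins are secreted ligands of the alpha-neurexins that resemble peptide precursors in being processed. In the midbrain, peptides such as substance P, enkephalin, cholecystokinin and neurotensin are known from the periaqueductal grey, the colliculi and the dopamine cell groups.

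The libraries held 38966386 expected counts in replicate 1 and 40419493 in replicate 2, of which spike-in RNA took 2.30% and 2.42%. Midbrain marker genes were expressed, defined here as 1 TPM or more in both libraries, in 10 of 11 cases. The highest were the transcription factor genes Gata3 at 81.4 and 94.51 TPM, Meis2 at 71.68 and 61.06 TPM, and Otx2 at 66.35 and 66.1 TPM. The marker that missed was En2, at 1.21 TPM in replicate 1 and 0.76 TPM in replicate 2. The pools also differed in markers of other tissues. The liver gene Alb had 209 counts in replicate 1 and 4 in replicate 2, and the skin gene Krt5 had 4 and 238.

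The choice by name did not use the coding sequences, in which cleavage sites appear as pairs of codons for basic residues. The stretches below show such pairs and the peptides beside them in genes whose levels lead the set or whose transcripts are described further on. They were read 5′ to 3′ from GENCODE M21 coding sequences on GRCm38 (mm10). Capitals mark the last basic codon pair of Sst, the Tyr-Gly-Gly-Phe codons of Penk that open each enkephalin, and the basic codon pair in a Tac1 exon. The 45-nt exon of Tac1 holds no basic pair and so no capitals.
Sst, 3′ end of the coding sequence, chr16:23889732-23889779, minus strand, exon 2: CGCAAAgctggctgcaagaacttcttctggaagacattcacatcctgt
Penk, nearest 2 enkephalin cores, chr4:4134307-4134354, minus strand, exon 2: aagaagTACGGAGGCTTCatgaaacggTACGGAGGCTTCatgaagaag
Tac1, 54-nt exon, chr6:7559099-7559152, plus strand, exon 6 of Tac1-205: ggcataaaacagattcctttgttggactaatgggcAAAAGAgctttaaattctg
Tac1, 45-nt exon, chr6:7557216-7557260, plus strand, exon 4 of Tac1-205: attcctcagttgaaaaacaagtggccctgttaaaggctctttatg
After its last basic pair, Sst has 14 codons left, which spell the peptide somatostatin-14. Penk holds 7 enkephalin cores in 268 codons, and the related opioid precursor gene Pdyn holds 3 in 248 codons. The 54-nt exon of Tac1 carries the codons of neurokinin A, the tachykinin that accompanies substance P.

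Lys-Arg codon pairs had a median density of 1.13 per 100 codons over the 24 precursors, against 0.264 over 21460 protein-coding genes. Of the precursors, 13 (54.2%) had 1 pair or more per 100 codons, against 6.09% of all protein-coding genes. Penk was densest at 2.99 per 100 codons, followed by Trh at 2.73, Nts at 2.37 and Tac1 at 2.31. Density did not mark every precursor. Sst, Cck, Crh, Grp, Nmb, Ucn, Ghrh and Nppc held no Lys-Arg codon pair, although each had at least 1 pair of another basic kind. Trh, which encodes repeated copies of thyrotropin-releasing hormone, had 5 glycine codons directly before a basic pair, the arrangement from which amides are made. Some such glycine was found in 13 of 24 precursors (54.2%) and in 35.2% of all protein-coding genes. For Cck, Pnoc, Adcyap1, Ucn and Gnrh1 the longest coding sequence, used here, is of a transcript not among the deposited ones. Their codon counts may differ in the deposited form. Precursors are short beside other genes, with a median of 143.5 codons against 396. The granins were instead rich in acidic residues, with a median of 20.3% of codons against 11.2% in all genes and 11.6% in the precursors. They ran from 19.1% in Scg2 to 23.2% in Chgb, and the precursor gene Nucb2, at 23.1%, lay within that range. These are descriptions of named genes, with no test.

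**Figure D1:**
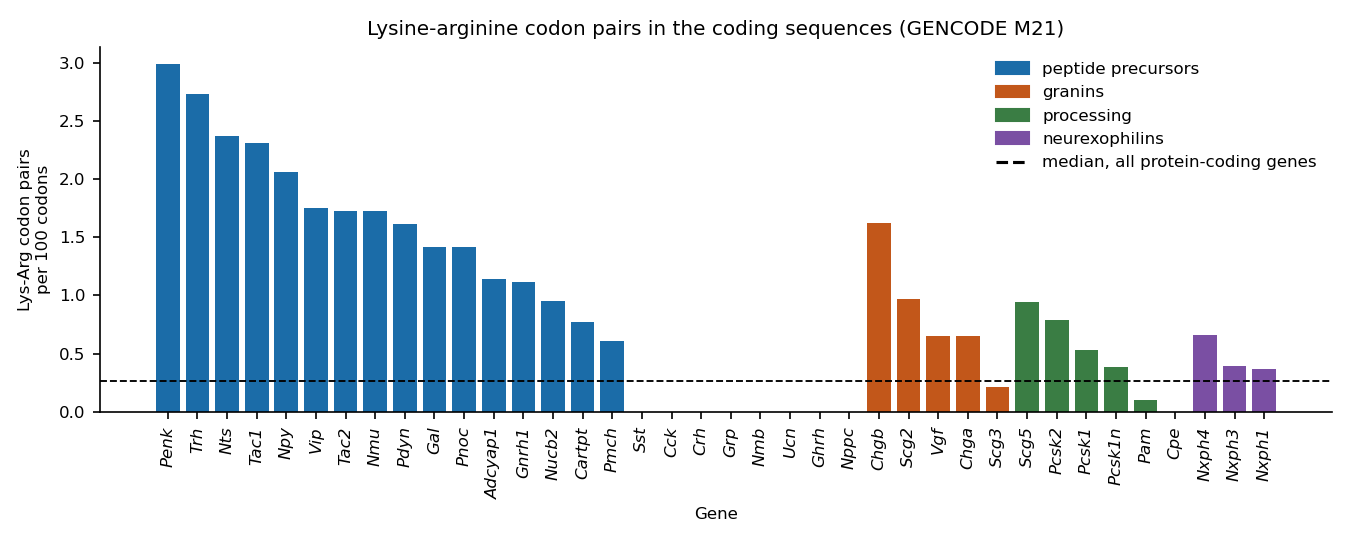
Lys-Arg codon pairs per 100 codons (y axis) in the longest coding sequence of each of the 38 genes (x axis), coloured by role, with a dashed line at the median of all protein-coding genes (0.264). Precursors run from 0 to 2.99, and 8 of the 24 have none.

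Of the 38 genes, 33 were expressed, which is 19 of 24 precursors and all 5 granins, 6 processing genes and 3 neurexophilins. The background was 62.4% of 21474 protein-coding genes and 35.4% of all Ensembl genes. A level of 10 TPM or more in each library was reached by 22 of the 38, against 41.8% of protein-coding genes, and 100 TPM by 5, against 7.61%. The libraries gave medians over the 38 of 19.2 and 17.6 TPM (18.4 ± 1.11), above that of all protein-coding genes (5.42 ± 0.12). Expressed protein-coding genes alone had a median of 20.3 ± 0.0141 TPM. That is not a like comparison, since the 38 include genes that were not expressed. The share of the 38 genes in total TPM was 0.247% and 0.240%. In bulk tissue, fewer cells of a type and less RNA per cell cannot be told apart, so a low level may come from either.

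By group medians, granins, processing genes and neurexophilins lay above the precursors, although the genes of the groups overlapped. Precursors had a median of 9.84 ± 0.484 TPM, granins 83.7 ± 0.0566, processing genes 114.8 ± 4.26 and neurexophilins 63.4 ± 1.56. As back-transformed means of log2(TPM + 1) the groups were at 8.52, 59.0, 68.9 and 27.2 TPM in that order. Pcsk1, Vgf and Nxph3 lay under the precursor median in both libraries, and Sst lay above every gene of the other groups except Cpe. On the log2(TPM + 1) scale, which understates differences of low genes, the processing median exceeded the precursor median by 2.88 in replicate 1 and 2.90 in replicate 2 (2.89 ± 0.0169). The granin median exceeded it by 3.01 and 2.92 (2.97 ± 0.0645), and the neurexophilin median by 2.59 and 2.55 (2.57 ± 0.0285). Which of processing genes and granins lay higher depended on the summary. Medians in TPM were higher for processing genes in both libraries, medians on the log2 scale were lower by little (-0.14 and -0.02, processing minus granins; -0.08 ± 0.0814), and means on that scale gave 0.22. The SDs describe how far the pools differ and not the spread among the genes of a group. With 2 libraries an exact sign-flip test cannot go below 0.5, so no p is given.

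**Figure D2:**
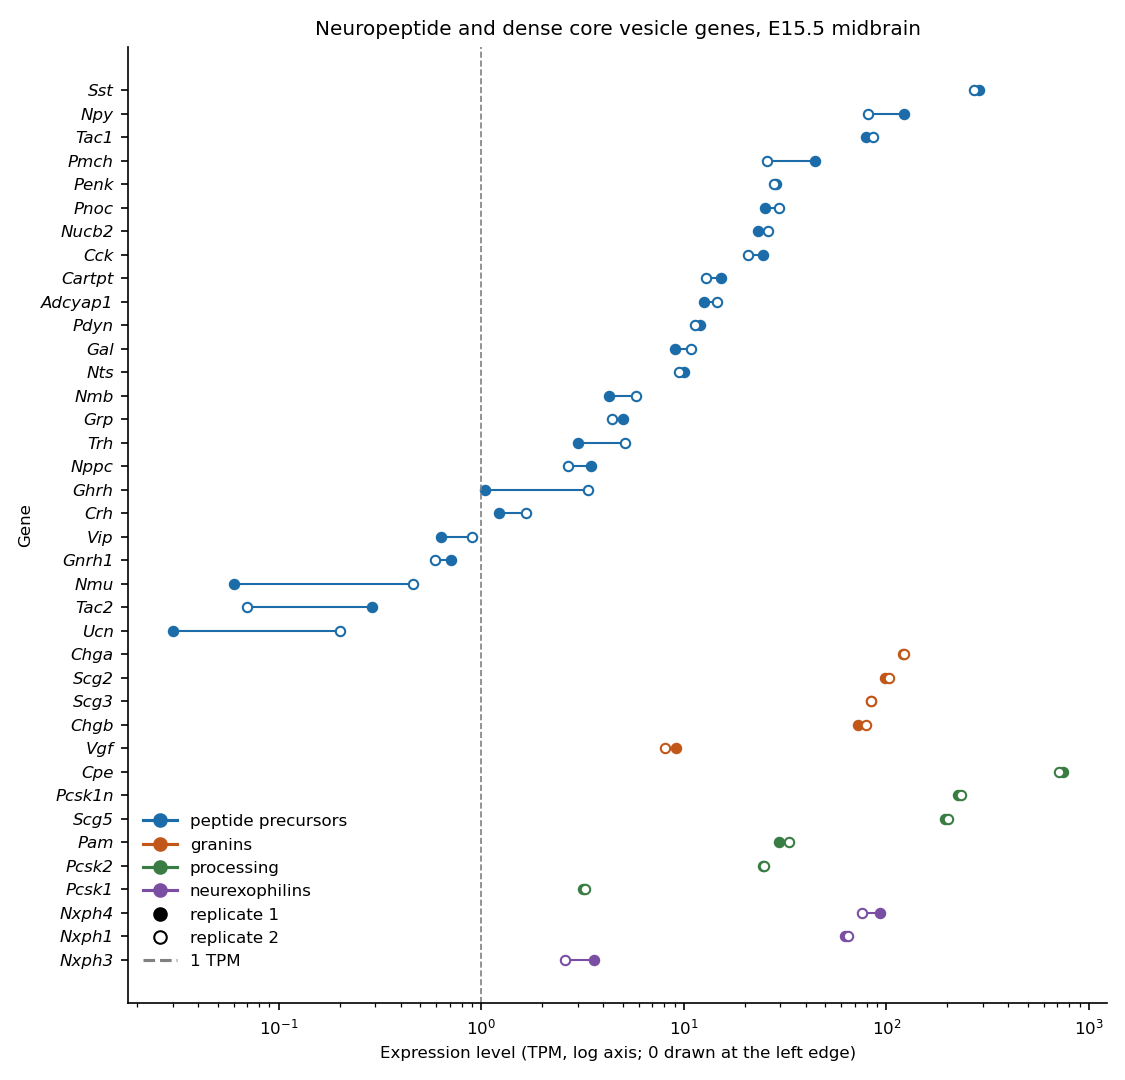
Level of each of the 38 genes in TPM (x axis, log scale) in replicate 1 (filled) and replicate 2 (open), by gene (y axis) and role (colour), with a dashed line at 1 TPM. Cpe sits highest at 741.1 and 708.79 TPM, and 5 precursors lie left of the line.

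Somatostatin (Sst; chromosome 16, 23889573 to 23890958, mm10), whose peptide inhibits neurons and hormone release, was the highest precursor at 285.82 TPM in replicate 1 and 270.71 TPM in replicate 2. It alone took 40.1% and 41.5% of the TPM of all 24 precursors. Neuropeptide Y (Npy; chromosome 6, 49822710 to 49829507) followed at 122.85 and 81.16 TPM. The tachykinin gene Tac1 (chromosome 6, 7554879 to 7565834), source of substance P and neurokinin A, stood at 79.53 and 85.76 TPM. The ranges of Npy and Tac1 overlapped, so their order is not settled by these libraries, while both lay below Sst in each. Sst, Npy and Tac1 together made up 68.5% and 67.1% of precursor TPM.

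A middle tier of precursors followed. Melanin-concentrating hormone (Pmch), a peptide of lateral hypothalamic neurons in the adult, was at 44.63 TPM in replicate 1 and 25.69 TPM in replicate 2. The enkephalin precursor gene Penk was at 28.56 and 27.85 TPM, and Pnoc, which encodes nociceptin, was at 25.25 and 29.38 TPM. Nucb2, the nesfatin precursor gene, was at 23.15 and 26.17 TPM, and the cholecystokinin gene Cck was at 24.55 and 20.66 TPM. Pmch overlapped Penk, Pnoc and Nucb2, so no order among those holds in both libraries except that Penk and Pnoc lay above Nucb2.

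Lower precursors included the gene of the satiety peptide CART, Cartpt, at 15.19 and 12.84 TPM. Adcyap1, the PACAP gene, was at 12.55 and 14.55 TPM, and the dynorphin gene Pdyn was at 12.01 and 11.41 TPM. Among the opioid-family precursors of the set, Penk and Pnoc thus lay above Pdyn in both libraries. Galanin (Gal) was at 9.01 and 10.89 TPM and neurotensin (Nts), a peptide of midbrain dopamine neurons and their inputs, was at 9.98 and 9.47 TPM. The bombesin-like precursor genes were alike in gene level, with Nmb at 4.29 and 5.84 TPM and Grp at 4.99 and 4.44 TPM. The Nmb level includes retained-intron transcripts, and Nmb overlaps Sec11a on the same strand, as described further on. Trh, the thyrotropin-releasing hormone gene, was at 3 and 5.13 TPM, and Nppc, the C-type natriuretic peptide gene, was at 3.5 and 2.68 TPM. Just above the threshold were growth hormone-releasing hormone (Ghrh) at 1.04 and 3.35 TPM and corticotropin-releasing hormone (Crh) at 1.23 and 1.66 TPM.

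The 5 precursors under the threshold rested on few reads. Vip, the gene of vasoactive intestinal peptide, had 21 and 31 counts (0.63 and 0.9 TPM), and the gonadotropin-releasing hormone gene Gnrh1 had 7 and 6 (0.71 and 0.59 TPM). Nmu, the neuromedin U gene, had 1 count in replicate 1 and 8 in replicate 2, a 7.74-fold ratio with a 95% counting interval from 1.04 to 344. The neurokinin B gene Tac2 had 4 and 1, a 4.13-fold ratio with an interval from 0.409 to 203. Urocortin (Ucn) had 0 and 2 counts, both at or under the 3 counts that a count of 0 allows, and no ratio is given. Tac1 and Tac2, the genes of related tachykinins, thus lay at opposite ends of the list in both libraries.

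Among granins, Chga (chromosome 12, 102554969 to 102565028) was highest at 121.31 and 122.66 TPM. Scg2, the secretoneurin precursor gene, was at 98.11 and 103 TPM, Scg3, whose product links the granin aggregate to the vesicle membrane, at 83.71 and 83.63 TPM, and Chgb at 72.17 and 79.39 TPM. Vgf, a granin-like precursor gene induced by neurotrophins, was far below at 9.15 and 8.07 TPM. Chga exceeded Vgf 13.3-fold in replicate 1 and 15.2-fold in replicate 2. The order Chga, Scg2, Scg3, Chgb, Vgf was the same in both libraries.

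Cpe (chromosome 8, 64592542 to 64693054) was the highest of the 38 genes at 741.1 TPM in replicate 1 and 708.79 TPM in replicate 2. It ranked 100 among 21474 protein-coding genes by mean level and made up 29.7 ± 0.296% of the set's TPM. Inhibitors and chaperones of the convertases outranked the convertases themselves. Pcsk1n, which encodes the Pcsk1 inhibitor proSAAS, was at 224.63 and 234.89 TPM, and Scg5, which encodes the Pcsk2 chaperone 7B2, was at 194.22 and 202.54 TPM. Pcsk2 was at 24.66 and 24.92 TPM, Pcsk1 at 3.17 and 3.25 TPM, and the amidating enzyme gene Pam at 29.41 and 33.15 TPM.

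The ratios within this chain varied little between pools. Pcsk2 exceeded Pcsk1 by 7.78-fold and 7.67-fold. Pcsk1n exceeded Pcsk1 by 70.9-fold and 72.3-fold, and Scg5 exceeded Pcsk2 by 7.88-fold and 8.13-fold. Cpe exceeded Pcsk2 by 30.1-fold and 28.4-fold, and Pam by 25.2-fold and 21.4-fold. Cpe also binds sorting cargo and is known outside peptidergic cells, and TPM says nothing of enzyme activity.

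The neurexophilins were unequal in level. Nxph4 was at 93.45 and 76.25 TPM, Nxph1 at 62.28 and 64.49 TPM, and Nxph3 at 3.6 and 2.59 TPM. Nxph4 exceeded Nxph3 by 26.0-fold in replicate 1 and 29.4-fold in replicate 2. The remaining family gene, Nxph2, which is outside the set, was at 0.5 and 0.42 TPM. Nrxn3, which encodes an alpha-neurexin, was at 69.88 and 75.15 TPM.

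Other genes of the pathway were taken from lists made by known function. Receptors of the peptides were mostly low: 19 of 42 were expressed, with a median of 1.04 ± 0.0177 TPM. The highest were the nociceptin receptor gene Oprl1 at 88.16 and 86.75 TPM, the PACAP receptor gene Adcyap1r1 at 42.97 and 40.86 TPM, and Sort1, which encodes the neurotensin-binding sorting receptor sortilin, at 21.42 and 21.32 TPM. Sstr2, a somatostatin receptor gene, was at 16.87 and 12.63 TPM. Oprl1 lay above its ligand gene Pnoc and Adcyap1r1 above Adcyap1, whereas Sstr2 lay below Sst. These receptors were named for being among the highest of the list. The pairs therefore do not show how receptor and peptide levels relate in general.

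Of 43 other neuropeptide precursor genes, 13 were expressed, with a median of 0.475 ± 0.0495 TPM. The vasopressin gene Avp led at 44.77 and 66.42 TPM, above all but 3 of the 24 precursors of the set in replicate 1 and in replicate 2. Pomc at 7.36 and 3.93 TPM, Edn3 at 6.19 and 5.04 TPM and Calca at 4.41 and 4.65 TPM came next. Convertases and peptide enzymes outside the set had a median of 9.59 ± 0.166 TPM, and 30 of 32 passed 1 TPM. Rnpep (86.0 ± 1.93), Ctsl (84.3 ± 0.863), Prep (77.8 ± 2.23) and Dpp6 (67.5 ± 1.63), 3 peptidase genes and a catalytically inactive relative, led that list.

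Genes of dense core vesicle formation, transport and release were expressed in 45 of 47 cases, with a median of 22.3 ± 0.0141 TPM. They were led by the vesicle motor gene Kif1a at 401.96 and 400.31 TPM, Rab3a at 388.77 and 396.48 TPM and Rab2a at 306.91 and 308.98 TPM. Kif1a and Rab3a also serve synaptic vesicles. In the list of neurexins and their partners, 10 of 11 were expressed at a median of 30.3 ± 2.93 TPM, and Cbln2 (106.2 ± 5.53), Nrxn3 and Nlgn3 (72.2 ± 0.976) were among its highest.

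**Figure D3:**
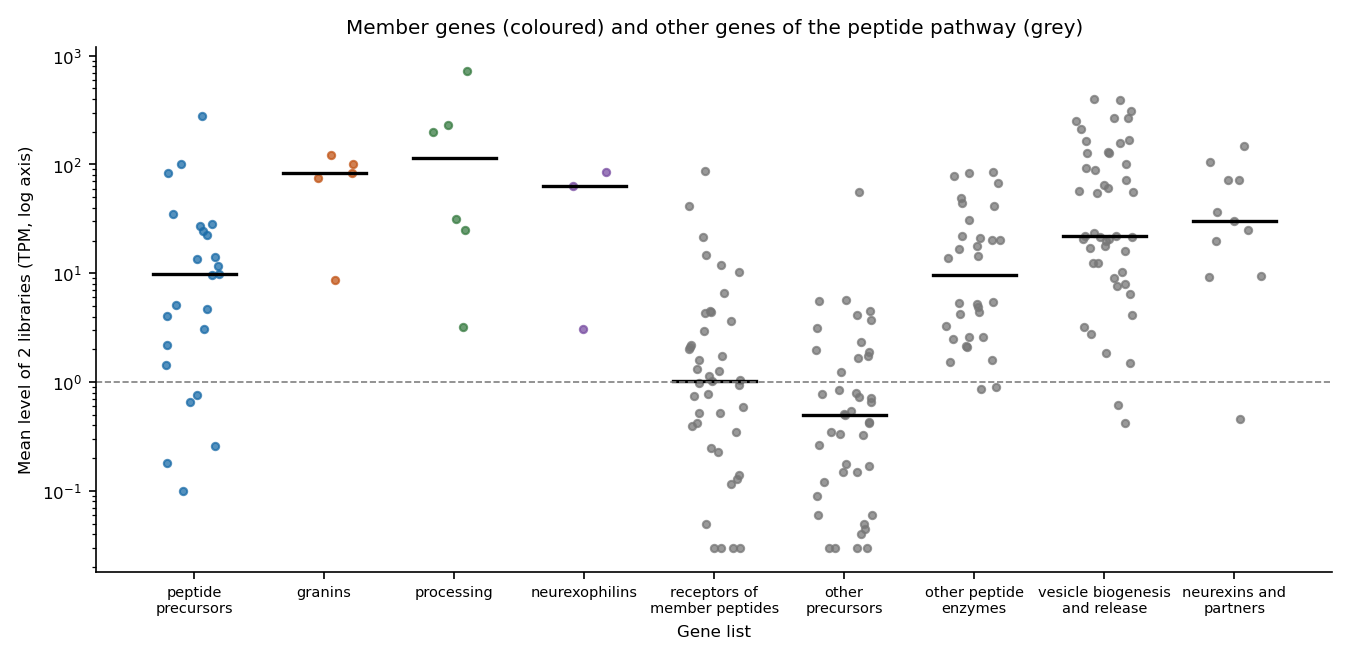
Mean level over the 2 libraries in TPM (y axis, log scale; 0 drawn at the lowest position) for each gene of the 4 roles (coloured) and of 5 lists of other pathway genes (grey) on the x axis, with a black bar at each list's median of gene means and a dashed line at 1 TPM. Granin and processing medians (83.7 and 114.8 TPM) lie above that of the vesicle genes (22.3 TPM), while receptors and other precursors spread around and below the line.

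The 2 embryo pools were compared gene by gene with a two-sided exact binomial test on rounded expected counts, adjusted by Benjamini and Hochberg over 18269 genes with a mean of 10 counts or more. Calls needed both an adjusted p under 0.05 and a difference of 2-fold or more. The test covers counting error only and compares these libraries, not conditions. Of the 38 genes, 34 had enough counts. Only Ghrh was called, 1 of 34, where 1.63% of all tested genes were called (0.733% as higher in replicate 2 and 0.898% as higher in replicate 1). Ghrh had 10 counts in replicate 1 and 33 in replicate 2, 3.19-fold higher in replicate 2 with a 95% counting interval from 1.54 to 7.27 (adjusted p = 0.0061, exact binomial). A spread between libraries of 0.0651 (biological coefficient of variation) was estimated from these same 2 libraries, taken as 1 group. It thus counts differences between the pools as noise and is no independent measure of spread. With that spread added in edgeR's exact test, Ghrh had an adjusted p of 0.072. No gene of the 34 was called by that test, in which 6 had an unadjusted p under 0.05 and 0.865% of all genes were called. Restricted to a mean of 50 counts or more, which Ghrh does not reach, the exact binomial test called 0 of 31 (background 0.452%), with 16 at an unadjusted p under 0.05. Ghrh was also the gene called with DESeq2 size factors (background 1.61%), total counts (1.61%), no filter on low counts (1.43%) and posterior counts (1.49%).

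Smaller differences were called in every role. Without a fold threshold the exact binomial test called 13 of 34, where 19.3% of all tested genes were called. Of the 13, 5 were higher in replicate 1 (background 10.1%) and 8 higher in replicate 2 (background 9.18%). Such calls depend on depth: Cpe, with 34413 and 33979 counts, was called at 1.05-fold. The background was not matched for counts, so these shares are not directly comparable. At 1.5-fold the test called 4 (background 2.88%). Npy (1340 and 914 counts) was 1.51-fold higher in replicate 1, with an interval from 1.39 to 1.65 (adjusted p = 2.7e-20, exact binomial). Pmch (678 and 403 counts) was 1.74-fold higher in replicate 1, with an interval from 1.53 to 1.97 (adjusted p = 5.5e-17, exact binomial). In the edgeR exact test these were adjusted p = 0.0058 for Npy and 0.00015 for Pmch. Trh (90 and 159 counts) was 1.71-fold higher in replicate 2, with an interval from 1.31 to 2.24 (adjusted p = 0.00053, exact binomial), and had an adjusted p of 0.069 in edgeR's exact test. The fourth gene was Ghrh.

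Granins and processing genes differed between the pools by small ratios. The median absolute log2 ratio between the pools was 0.246 over the 20 precursors tested, 0.0667 over 5 granins and 0.0612 over 6 processing genes, against 0.107 over all tested genes. Chgb was 1.10-fold higher in replicate 2, with an interval from 1.06 to 1.14, and Pam 1.11-fold, with one from 1.04 to 1.17. Cpe was 1.05-fold higher in replicate 1 (1.03 to 1.06) and Pcsk1n 1.05-fold higher in replicate 2 (1.02 to 1.07). These 4 were called without a fold threshold by the exact binomial test and had an adjusted p of 1 in edgeR's exact test. Scg3, with 4204 and 4336 counts, had a ratio interval from 0.96 to 1.05 (replicate 1 over replicate 2). Pcsk2, with 2601 and 2709 counts, had one from 0.955 to 1.06 (replicate 2 over replicate 1). Among neurexophilins, Nxph4 (3440 and 2898 counts) was 1.23-fold higher in replicate 1, with an interval from 1.17 to 1.29, under the fold threshold. Most precursors have fewer counts than granins and processing genes, and no test of this difference in spread was made.

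**Figure D4:**
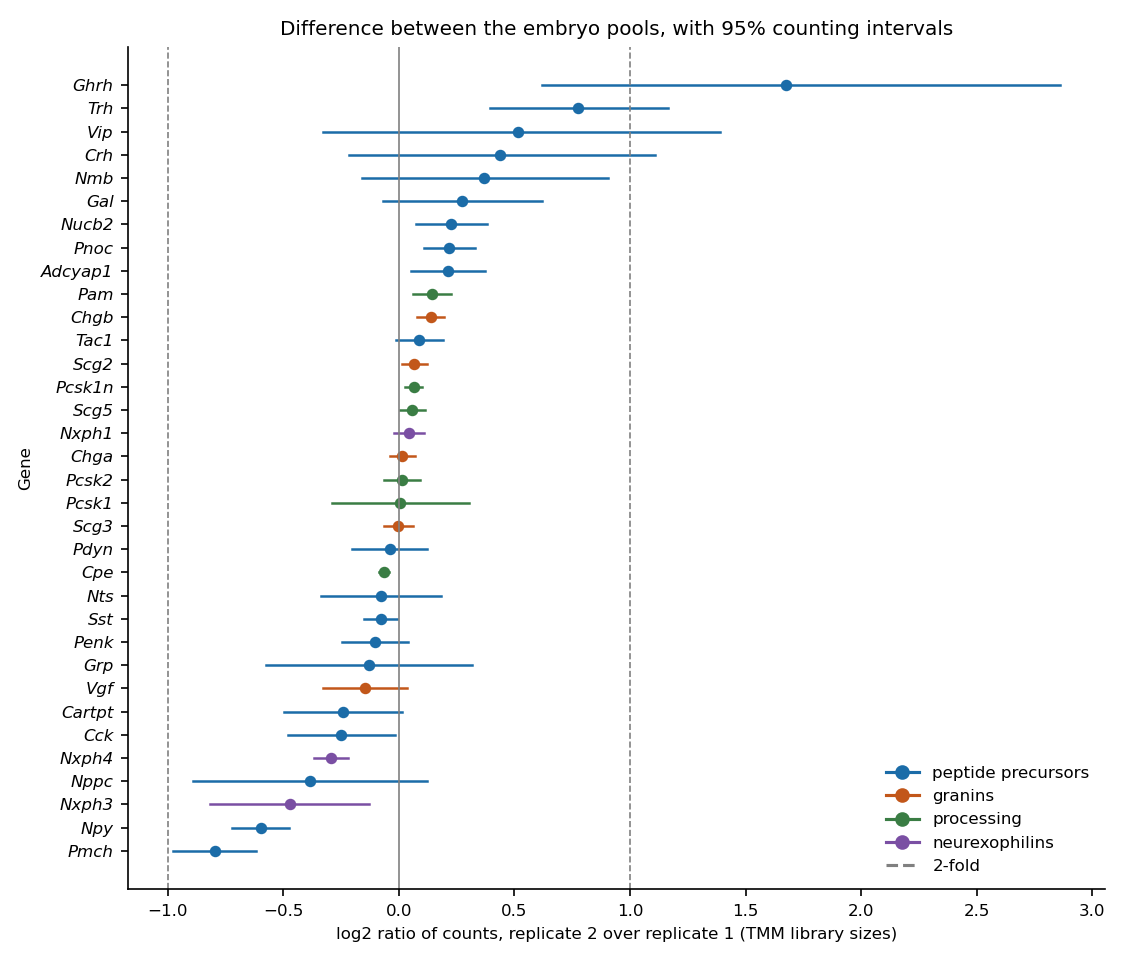
log2 ratio of counts, replicate 2 over replicate 1 (x axis), for the 34 tested genes (y axis, ordered by ratio, coloured by role), with 95% counting intervals as lines and dashed lines at 2-fold. Ghrh is the only point beyond a dashed line, and granins and processing genes lie near 0.

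Markers of the hypothalamus, the neighbouring region in which Ghrh, Pmch, Trh and Crh neurons are best known, also differed between the pools. Of 11 matched markers, 6 were expressed, and the 11 summed to 68.24 and 92.72 TPM in the libraries. Of the 10 with enough counts, 4 were called by the exact binomial test, against 1.63% of all tested genes. In edgeR's exact test 4 were called too, against 0.865% of all tested genes. Sim1 (143 and 322 counts), Otp (110 and 234) and Fezf1 (99 and 283) were higher in replicate 2, as Ghrh and Trh were. Six6 (113 and 46 counts) was higher in replicate 1, as Pmch and Npy were. Avp, at 500 and 766 counts, made up most of the summed level and was 1.48-fold higher in replicate 2. The oxytocin gene Oxt had 3 and 7 counts. The part of the hypothalamic markers in the differences of Ghrh, Trh, Pmch and Npy was not tested.

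Markers of other peptide-making tissues differed in level. The pituitary genes Gh and Prl had 0 counts in both libraries, and the 8 pituitary markers summed to 3.66 and 3.21 TPM, most of it from Pitx1. The 5 markers of gut or pancreas endocrine cells summed to 2.11 and 2.22 TPM, with 1 of 5 expressed. The 6 telencephalon markers, of which 5 were expressed, summed to 30.1 and 24.3 TPM, led by Neurod6 at 18.42 and 14.09 TPM, and Emx1 was called as higher in replicate 1. The 4 markers of noradrenergic hindbrain, whose neurons make Npy and Gal, summed to 7.49 and 1.98 TPM. Of the 4, 0 reached 1 TPM in both libraries. Their median was nevertheless 2.045 TPM in replicate 1, against 0.59 TPM in replicate 2. Dbh (169 and 31 counts) and Slc6a2 (397 and 104) were called as higher in replicate 1. Over all tested genes, 0.898% were called in that direction. The 6 sensory ganglion markers summed to 16 and 11 TPM with 2 expressed, and Tlx3 (89 and 32 counts) was called as higher in replicate 1. The part of telencephalic, noradrenergic and sensory ganglion tissue in the levels of Npy and the other peptides was not tested.

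Calls between the pools among the other pathway genes stand beside the shares over all tested genes. Those shares were 1.63% in the exact binomial test and 0.865% in edgeR's exact test. With lists this short, the counts below say little against such shares. Sstr5 (47 and 16 counts) was 3.03-fold higher in replicate 1 (adjusted p = 9e-04, exact binomial), 1 of 36 receptors tested. Npvf (6 and 21 counts), a hypothalamic RFamide precursor gene, was 3.39-fold higher in replicate 2 (adjusted p = 0.035, exact binomial), 1 of 18 other precursors tested. In edgeR's exact test the adjusted p was 0.02 for Sstr5 and 0.26 for Npvf, so that only Sstr5 of this pair was still called. The exact binomial test called 0 of 32 other peptide enzymes, 0 of 47 vesicle genes and 0 of 11 neurexins and partners, with 10, 15 and 7 at an unadjusted p under 0.05, and edgeR's exact test also called 0 in each.

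Transcript tables gave the share of each gene's abundance taken by each listed transcript. For 23 of the 38 genes 1 transcript was listed. Of the 14 expressed genes with more, 13 had the same leading transcript in both libraries. These shares are estimates that depend on reads falling in the few stretches where transcripts differ.

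Tac1 was spread over 3 coding transcripts that differ by the exons printed above. Tac1-203, which lacks the 45-nt exon and is known as the gamma form, took 41.99% in replicate 1 and 44.98% in replicate 2 (43.5 ± 2.11%). Tac1-205, the beta form with both exons, took 30.92% and 30.69% (30.8 ± 0.163%). Tac1-201, the alpha form, which lacks the 54-nt exon and with it the codons of neurokinin A, took 26.78% and 24% (25.4 ± 1.97%). The gamma form led in both libraries. Transcripts with the neurokinin A exon together took 72.9% and 75.7% of Tac1, and nearly all of the rest was the alpha form.

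Pam-210 led Pam at 63.09% and 63.3% (63.2 ± 0.148%), and Pam-201 took 22.22% and 20.3% (21.3 ± 1.36%). The coding sequence of Pam-201 has 318 nt, or 106 codons, in 1 block (chromosome 1, 97864203 to 97864520) that Pam-210 lacks, and the reading frame is kept. Another annotated gene on the same strand, B230216N24Rik, overlaps Pam at 21.76 and 28.17 TPM, so some reads could belong to either. Scg2-202 took 56.93% and 59.09% (58.0 ± 1.53%) and Scg2-201 the rest. In Scg2-202 an annotated intron inside the coding exon removes 120 nt, or 40 codons (chromosome 1, 79435932 to 79436051).

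Other genes were dominated by 1 form or by forms with the same protein. Nxph1-202 (59.6 ± 3.46%) and Nxph1-201 (35.2 ± 3.3%) share an identical coding sequence of 813 nt. Penk-201 took 76.0 ± 5.23%; the other listed form, Penk-202, is annotated as incomplete at its 3′ end. Nucb2-201 took 71.6 ± 2.12%, with a short noncoding form, Nucb2-202, at 26.5 ± 3.16%. That form of 329 nt rests on 35.74 and 35.22 expected counts, against 589.9 and 717.77 for Nucb2-201, so its share is imprecise. Pcsk2-201 took 89.2 ± 0.594%, Vgf-201 92.2 ± 1.06%, Pdyn-201 98.4 ± 2.26% and Scg5-201 99.0 ± 0.0778%. Nmb was the gene whose leading form differed, from Nmb-201 (64.68%) in replicate 1 to the retained-intron form Nmb-203 (54.84%) in replicate 2. Its 54 and 72 counts leave these shares imprecise, and it overlaps Sec11a, which lies on the same strand at 139.38 and 125.73 TPM.

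**Figure D5:**
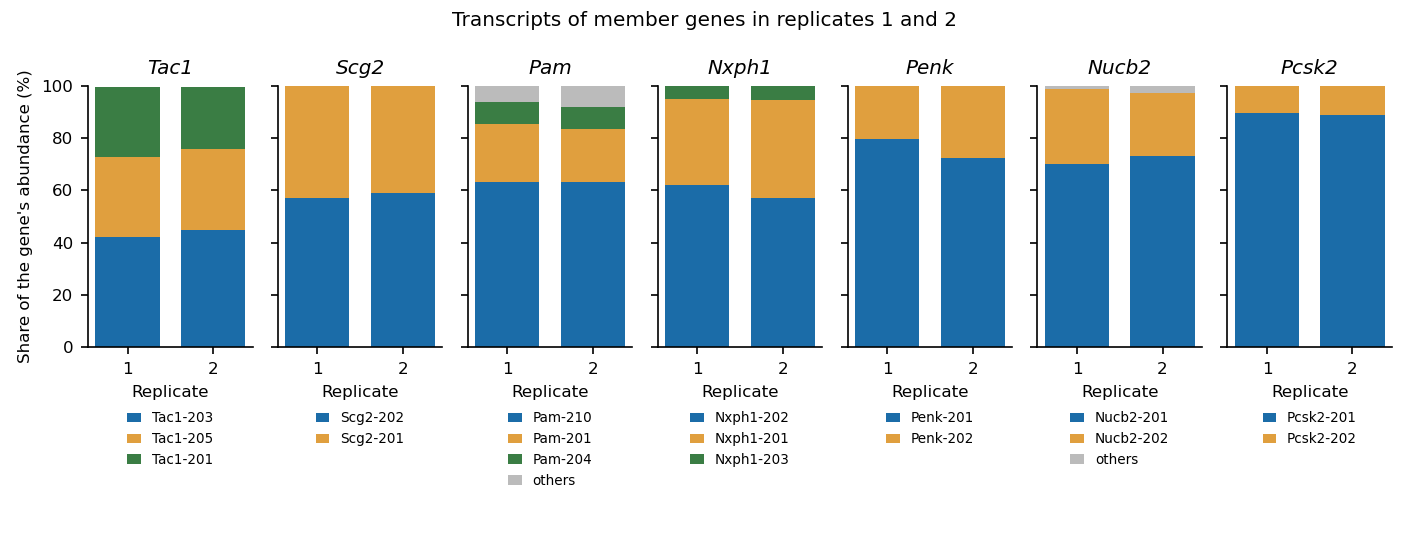
Share of each gene's abundance in percent (y axis) taken by its leading listed transcripts in replicates 1 and 2 (x axis) for 7 of the genes, with remaining transcripts in grey. Tac1 is divided among 3 forms, and the leading form is the same in both libraries for all 7.

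Promoter windows of 300 bases, 250 before and 50 after the start, were taken from RefSeq (GRCm38.p6) and matched for 29 of the 38 genes in 33 windows. Penk, Pnoc, Crh, Grp, Gnrh1, Vgf, Cpe, Nxph3 and Nxph4 had no matched window and were not searched. The cyclic AMP response element, the site of the activity-regulated factor CREB known from the somatostatin gene, was searched as TGACGTCA, which reads the same on both strands. It lay in 6 of 33 windows (18.2%) against 588 of 32851 windows (1.79%) in the whole table. The sites are shown with their flanks, which the search did not use, and lay 40 to 108 bases before the start. The element is in capitals, written 5′ to 3′ on the gene's strand.
Sst, chr16:23890874-23890903, minus strand: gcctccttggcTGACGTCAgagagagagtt
Chgb, chr2:132781559-132781588, plus strand: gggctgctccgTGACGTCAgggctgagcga
Scg2, chr1:79440076-79440105, minus strand: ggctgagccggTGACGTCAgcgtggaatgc
Cartpt, chr13:99900777-99900806, minus strand: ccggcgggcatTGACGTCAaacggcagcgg
Pcsk1, chr13:75089768-75089797, plus strand: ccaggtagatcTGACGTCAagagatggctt
Ucn, chr5:31138921-31138950, minus strand: atgttcttcgcTGACGTCAgtcggagctgt
The 6 genes covered 3 roles and nearly the whole range of levels, from Ucn with 0 and 2 counts to Sst at 285.82 and 270.71 TPM. The shorter half-site TGACG, searched on both strands and contained in every full element, lay in 21 of 33 windows (63.6%) against 20.8% of all windows. TATAAA, searched on both strands, lay in 6 of 33 (18.2%) against 13.6%. A match describes letters in the window and not binding, and no test was made on these genes, which were chosen by name.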

How the data were processed

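The authors deposited 1 gene table and 1 transcript table per library. Per the file headers these hold expected counts, TPM, FPKM, posterior mean values, the posterior SD of each count (a score in counts) and the percent of its gene that each transcript takes. The authors scaled the deposited TPM over all rows, spike-ins included; FPKM was not used. Notes that the authors deposited with the tables name mm10 and GENCODE M4. The aligner, counting tool and strand setting were not given in the sources used here. PCR copies could not be told apart, so intervals cover counting error only. The labels give the pools as biological replicates.

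The 38 genes and all lists were chosen with earlier results of these data known. Symbols, transcript names, coordinates and coding sequences came from GENCODE M21 on the same build; Galr3 and Kiss1 of the lists were not matched. Protein sequences were not used here, so residues were counted as codons of the longest coding sequence. Every one of the 38 genes is given with its levels or counts; of each other list the 4 highest and any called are named, except for some that are not reported here. Leading transcripts of genes at 5 TPM or more were named by rule; other transcripts were chosen after their values were seen. The posterior SD was at most 1.92% of the count for the genes of the set. Counts were rounded for the pool test, with TMM library sizes (edgeR 4.0.16, R 4.3.3) and a ratio using 0.5 added counts for the fold threshold; printed folds have none added. The test was checked on data simulated with known fold changes and counting error only, so that check does not cover a spread between pools. DESeq2 1.42.0 size factors, other filters, thresholds, scalings and posterior values were tried as alternatives. Other steps ran in Python 3.11.15 with pandas 2.3.3 and scipy 1.17.1.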

Additional observations from a re-analysis of the deposited data

How the results depend on the processing

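The count of 33 expressed genes ranged from 31 to 35 over thresholds of 0.5 and 2 TPM, posterior values, rescaled TPM and each library alone (33 in both). Group medians rose when TPM was rescaled over protein-coding genes alone, which shrinks the total, to 11.9 (precursors), 101.4 (granins), 139.2 (processing) and 76.8 TPM (neurexophilins). They moved to 8.52, 59.0, 68.9 and 27.2 TPM as back-transformed means of log2(TPM + 1). The precursor median was 12.7 TPM over expressed precursors only, and the granin median was 81.7 TPM from posterior values. With 1 library left out, these medians ran from 9.50 to 10.2, 83.6 to 83.7, 111.8 to 117.8 and 62.3 to 64.5 TPM.

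Differences from the precursor median moved with a pseudocount of 0.1 to 2.99 (processing), 3.08 (granins) and 2.68 (neurexophilins), and over expressed genes only to 2.55, 2.63 and 2.23. With means in place of medians, an alternative added after seeing the data, the granin and neurexophilin differences were 2.66 and 1.56, and processing minus granins reversed to 0.22; the cause was not tested. With 1 library left out, the differences ran from 2.88 to 2.90, 2.92 to 3.01 and 2.55 to 2.59, and processing minus granins from -0.14 to -0.02.

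The count of 1 gene called between the pools stayed 1 with DESeq2 size factors, total counts, no filter and posterior counts. It was 13 with no fold threshold, 4 at 1.5-fold, 0 in edgeR's exact test and 0 with a mean of 50 or more counts, where Ghrh was not tested and 16 genes of the set had an unadjusted p under 0.05. Over all genes the count was 298, against 3524, 526, 158 and 67. The count of 13 genes with 1 leading transcript was 13 from posterior values, in which Pam-210 took 60.0%, Pam-201 17.3%, Vgf-201 87.0% and Pdyn-201 94.8%. That count and the pool test need both libraries, so leaving 1 out gives no value. No paired analysis was possible because there is 1 group. Ghrh, Vip, Nmu, Tac2, Ucn and Gnrh1 rest on 33 counts or fewer per library, which limits any statement on them.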

Other observations

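Among the promoter windows, TATAAA occurred for Adcyap1, Chga, Ghrh, Nppc, Pmch and Vip. None of these genes held the full cyclic AMP response element, which lay in 18.2% of windows of the set and 1.79% of all windows. With both motifs in few windows, this lack of overlap says little. Adcyap1, Chga, Ghrh and Vip held the half-site TGACG. The vasopressin gene Avp had 500 and 766 counts while the oxytocin gene Oxt, its chromosomal neighbour, had 3 and 7. The noncoding transcript Pcsk2-202 took 10.34% and 11.18% of Pcsk2, and the antisense genes Pcsk2os1 (2.58 and 3.28 TPM) and Pcsk2os2 (0.47 and 0.64 TPM) overlap Pcsk2; strand use is not stated. Grp-201 took 90.3% of Grp in replicate 1 and 64.94% in replicate 2 on 90 and 85 counts, and both of its coding transcripts have 438 coding bases.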
